A study of Mus musculus with 8 samples.

Results

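Oocytes store mRNAs with short poly(A) tails and lengthen these tails during meiotic maturation, and the genes for the proteins that do so are described here. The 10 genes were listed by symbol for their known part in this machinery, and the rule uses no measured value. They are Cpeb1, Cpeb2, Cpeb3 and Cpeb4, the cytoplasmic poly(A) polymerase gene Tent2 (listed under that name, also known as Papd4), the cleavage and polyadenylation specificity factor (CPSF) genes Cpsf1 and Cpsf4, the scaffold gene Sympk, and the canonical poly(A) polymerase genes Papola and Papolg. All 10 were among the 15962 genes listed in every library, and 9 of them were among the 13968 genes tested. Cpeb2 stayed under 1 TPM (a length-normalized share of the transcripts in a library) in all 8 libraries and was not tested.

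Polyadenylated RNA was measured by Smart-seq2 in 8 libraries of 15 oocytes each, 2 per group. The oocytes came from 6-week-old ICR females that had received gonadotropins. GV oocytes were arrested at the germinal vesicle stage and MII oocytes had reached metaphase of the second meiotic division in culture, both without injection. Btg4wt and Btg4tm oocytes were MII oocytes that had been injected, while fully grown, with capped cRNA from the Myc-pCS2+ vector. The cRNA encoded wild-type BTG4, an adaptor of the deadenylase complex that removes poly(A) tails, or a BTG4 with 3 neighbouring phosphorylated residues replaced by alanine. Injected oocytes kept their own Btg4 gene, and a group injected with a control RNA was not analysed here. The question behind MII versus GV is how maturation changes the RNA pool, and the question behind Btg4tm versus Btg4wt is what the alanine replacements change.

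CPEB1 binds the cytoplasmic polyadenylation element (CPE), a U-rich sequence in the 3′ UTR of stored mRNAs. Together with CPSF, which reads the poly(A) signal, and the scaffold symplekin it brings in the poly(A) polymerase TENT2, and once CPEB1 is phosphorylated in maturation the tail grows and the mRNA is translated. CPEB1 is then largely degraded, and CPEB4, whose own mRNA is a known CPEB1 target in frog oocytes, takes over its role there.

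A CPE followed by a poly(A) signal is an arrangement through which CPEB1 acts, so the 3′ UTRs of the genes themselves were searched for it. The sequences are from GENCODE M21 transcripts on GRCm38, in the transcript with the longest annotated 3′ UTR of each gene. The letters searched were TTTTAT and TTTTAAT for the CPE and AATAAA and ATTAAA for the signal, on the sense strand only, with the signal starting after the CPE and within 100 bases of the CPE's first base. In the following stretches the capitals mark the CPE and the signal found in this way, and each sequence reads 5′ to 3′ along the transcript. A CPE that overlapped a signal was not paired with it and is not marked. The further Cpeb4 stretch holds such a TTTTAAT, which overlaps the signal and has only the signal in capitals.
Cpeb1, CPE, chr7:81347475-81347504, minus strand: ttgatagaagtTTTTAATcacagtcacagg
Cpeb1, signal after this CPE, chr7:81347429-81347458, minus strand: ctgagcttaaaaATTAAAaaaaaaaaaaaa
Cpeb2, CPE and signal, chr5:43289466-43289495, plus strand: ccgttTTTTATttttttctaAATAAAaaga
Cpeb4, CPE and signal, chr11:31934902-31934931, plus strand: tttgtTTTTAATtgcagacATTAAAaaatg
Cpeb4, a further CPE and signal, chr11:31933753-31933782, plus strand: attTTTTAATataaataattttAATAAAtt
Tent2, CPE and signal, chr13:93147420-93147449, minus strand: ataTTTTATtatgacatttcctAATAAAct

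Such pairs were found in 4 of the 10 genes. The Cpeb1 3′ UTR held 1 pair with 47 bases between the first bases of the CPE and the signal, the Cpeb2 3′ UTR held 7 pairs, that of Cpeb4 held 5 and that of Tent2 held 3. Such letters are common in UTRs of these lengths. A pair was present in 27.4% of 3′ UTRs as long as that of Cpeb1, and in 51.1%, 52.8% and 27.3% of those as long as the 3′ UTRs of Cpeb2, Cpeb4 and Tent2. No pair of this kind was found in Cpeb3, Cpsf1, Cpsf4, Sympk, Papola or Papolg. CPEs that overlap a signal were left out of these pairs and of the shares above. These pairs lay upstream of the annotated 3′ end, and the CPEs printed for Cpeb1 and Cpeb4 began 468, 728 and 1879 bases before it. Within the last 150 bases of the longest 3′ UTR none of the 10 genes held a CPE. Among 18975 transcripts with a 3′ UTR of at least 150 bases, 23.3% held a CPE in that stretch. The 3′ UTRs of Cpsf1 and Sympk are shorter, and only their 79 and 100 bases were searched. Other annotated ends of these genes did hold a CPE, in 2 of 7 ends of Cpeb3, 1 of 3 of Tent2 and 2 of 6 of Papola. A poly(A) signal was present in the same last stretch of the longest 3′ UTR in 8 of the 10 genes and in 80% of the 18975 transcripts. The last signals of Cpeb4 and Sympk, the genes called in both MII versus GV and Btg4tm versus Btg4wt, and of Cpsf4, which has the variant letters, are shown with the signal in capitals.
Cpeb4, last signal, chr11:31935604-31935633, plus strand: agatgttgaatgAATAAAacttttaactca
Sympk, last signal, chr7:19054572-19054601, plus strand: tgccttaacacaAATAAAagagggcgtagc
Cpsf4, last signal, chr5:145182010-145182039, plus strand: tctatgaggttgATTAAAaagcttgttttt

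All values below are scaled TPM, for which the deposited TPM were divided by median-of-ratios factors of 0.948 to 1.11. Fold changes are on the log2(scaled TPM + 1) scale, where low genes appear to change less than they do. A call required an adjusted p below 0.05 (limma, Benjamini-Hochberg over all 13968 genes) together with a log2 fold change above 1 in either direction. Depth is unknown from TPM, and since the labels do not say that replicates came from separate cultures, p-values measure only the spread between these samples, which may be technical. Because reverse transcription starts from oligo(dT), fewer molecules and shorter tails cannot be told apart, nor can fewer cells and less RNA per cell. Replicates had Pearson correlations of 0.982 to 0.987 across genes, which are not independent replicates. Mitochondrially encoded genes took 0.623% and 0.648% of the TPM in GV, 2.7% and 2.6% in MII, 2.05% and 1.75% in Btg4wt and 0.762% and 1.02% in Btg4tm oocytes, so this share moved with the groups, and its part in the results below was not tested. All 11 oocyte markers, among them Zp3 and Gdf9, were above 1 TPM in every library, with a sum from 17300 to 28280 scaled TPM. Of 18 cumulus and granulosa cell markers, 9 were listed in none of the libraries, Amh, Foxl2, Has2 and Ptx3 among them, 3 were listed in a part of the libraries, and the 6 listed in every library summed to 34.0 to 45.2 scaled TPM, mostly Cyp19a1 and Nr5a2. Of these markers 4 were tested, and only Inha was called, with 4.37 and 2.11 scaled TPM in GV, 0 and 0.53 in MII, 1.88 and 1.09 in Btg4wt and 9.83 and 5.18 in Btg4tm oocytes. The oocyte markers had 0 calls higher and 5 lower in MII versus GV, beside 12.5% and 24% of all genes tested. In Btg4tm versus Btg4wt they had 4 higher and 1 lower, beside 18.1% and 7.94%. The part of either marker list in the results below was not tested. Btg4 itself had 2650 and 2794 scaled TPM in GV, 5792 and 6002 in MII, 5178 and 5510 in Btg4wt and 3725 and 4068 in Btg4tm oocytes, so injected groups did not stand above uninjected MII oocytes. The study reported overexpression of both BTG4 proteins by immunoblot, and this RNA level does not measure protein.

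In MII relative to GV oocytes Cpeb4 and Sympk rose and Cpeb1 fell. Thus 2 of the 9 tested genes were called higher and 1 lower, beside 12.5% higher and 24% lower of all genes tested. Without a minimum fold change, 7 of the 9 had an adjusted p under 0.05, beside 62.6% of all genes. The median log2 fold change of the 9 genes was 0.78 and that of all genes -0.0017. The split of calls depended on the scaling. It was 4 higher and 1 lower after quantile normalization, which shifted the median of all genes to 0.27, and 0 higher and 7 lower when libraries were scaled to the mitochondrially encoded genes, which shifted that median to -1.7. Relative to the median of all genes, 6 of the 9 lay above it in the values used here and 5 lay above it under mitochondrial scaling. Shares of all genes called under the other scalings are not given here. The counts under those scalings, here and below, can therefore not be judged against such a share.

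In Btg4tm relative to Btg4wt oocytes Cpeb3, Cpeb4 and Sympk fell, and none of the 9 genes was called higher. Of all genes 18.1% were called higher and 7.94% lower. An adjusted p under 0.05 with no minimum fold change was reached by 6 of the 9, beside 49.5% of all genes. The median log2 fold change was -0.46 over the 9 genes and 0.0077 over all genes. Mitochondrial scaling turned the split to 3 higher and 1 lower, with the median of all genes at 0.88, and the gene called lower under it was Sympk.

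The other 2 comparisons held no call among the 9 genes. Between Btg4wt and MII oocytes limma called 0% of all genes higher and 0% lower, with a smallest adjusted p of 0.086. At an unadjusted p under 0.05, 1655 genes (11.8%) differed, with Papola and Papolg among them. Between Btg4tm and GV oocytes 1.02% of all genes were called higher and 1.02% lower.

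**Figure D1:**
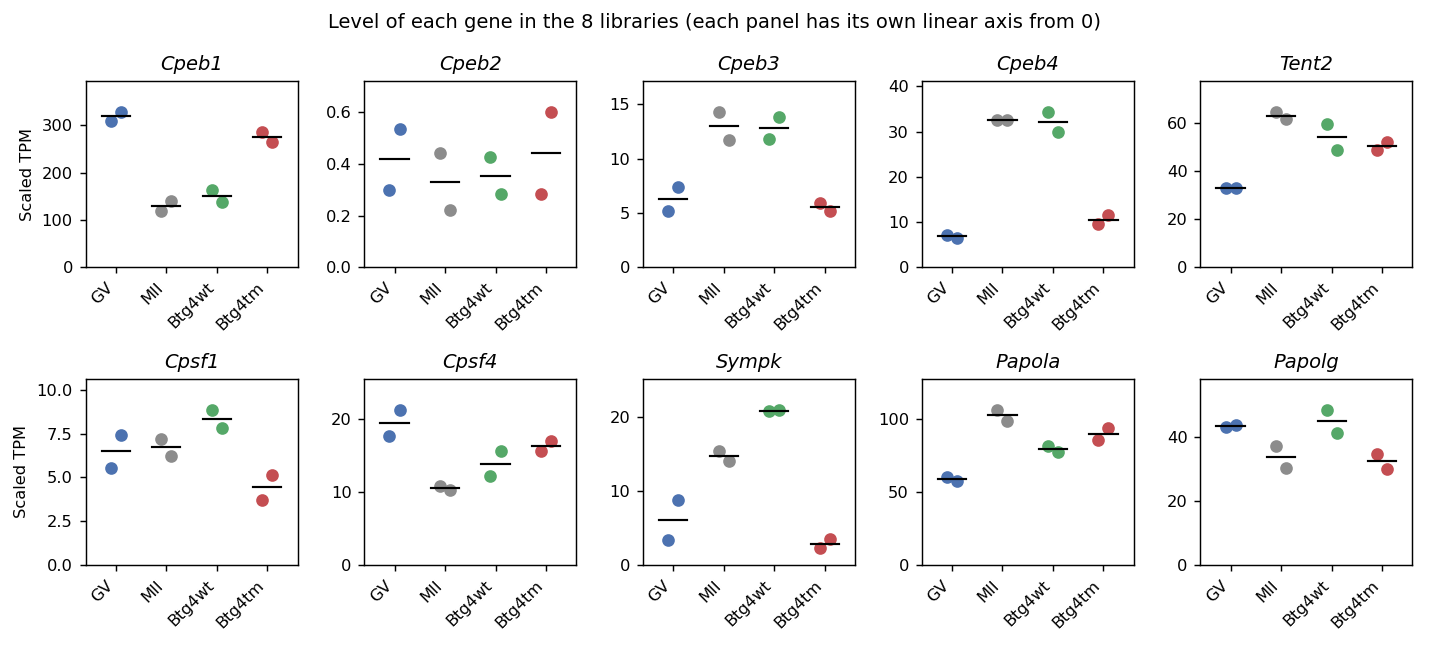
Scaled TPM (vertical axis, linear, starting at 0 in each panel) of the 10 genes in the 8 libraries, with 1 point per library and a line at the mean of each group of 2. Cpeb1 lies from 118 to 164 in the MII and Btg4wt libraries and from 266 to 328 in the GV and Btg4tm libraries, while Cpeb4 and Sympk are highest in the MII and Btg4wt libraries.

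Cpeb1 encodes the founding CPE-binding protein of the oocyte and was by far the most abundant of the family. Its scaled TPM were 309.7 and 328 in GV, 118 and 141 in MII, 164 and 139 in Btg4wt and 285 and 266 in Btg4tm oocytes. The GV and Btg4tm libraries were high and the MII and Btg4wt libraries low, with no overlap between MII and GV or between Btg4tm and Btg4wt. Ranked by TPM among the genes listed in every library, Cpeb1 stood at 483 and 439 in GV, 1234 and 1015 in MII, 872 and 1033 in Btg4wt and 543 and 615 in Btg4tm oocytes. Cpeb1 fell from GV to MII by 1.30 on the log2 scale (standard error 0.13, adjusted p = 4.5e-05), a ratio of 0.407 in scaled TPM + 1. In Btg4tm relative to Btg4wt oocytes its log2 fold change was 0.86 (95% confidence interval 0.58 to 1.15, adjusted p = 0.00066), a difference larger than the spread between replicates but short of the fold required for a call. Mitochondrial scaling raised it to 1.95, a call. Btg4tm oocytes stood a little below GV oocytes, with a log2 fold change of -0.21 (interval -0.50 to 0.08, adjusted p = 0.30). Btg4wt and MII oocytes, next to each other at the low end, overlapped.

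Cpeb4 encodes the paralogue that acts late in meiosis in frogs. It had 7.11 and 6.59 scaled TPM in GV, 32.6 and 32.6 in MII, 34.3 and 29.99 in Btg4wt and 9.57 and 11.6 in Btg4tm oocytes. The order was the reverse of that of Cpeb1, and the MII and Btg4wt libraries lay far above all others. Cpeb4 rose from GV to MII by 2.10 on the log2 scale (standard error 0.15, adjusted p = 1e-05). This was a 4.29-fold difference in scaled TPM + 1 and the largest among the 9 genes. Its fold change exceeded that of 99.7% of all genes tested. In Btg4tm relative to Btg4wt oocytes Cpeb4 fell by 1.52 (standard error 0.15, adjusted p = 8.6e-05), a ratio of 0.348 in scaled TPM + 1. The levels in Btg4wt and MII oocytes overlapped, with an interval of -0.37 to 0.32 for the log2 fold change. Every Btg4tm library was above every GV library, where the log2 fold change was 0.55 (interval 0.21 to 0.90, adjusted p = 0.051). Under mitochondrial scaling the difference between MII and GV shrank to 0.033, which is 1.77 above the median of all genes under that scaling. The Btg4tm versus Btg4wt difference shrank to -0.49 (adjusted p = 0.060), and that between Btg4tm and GV turned to -0.013.

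Cpeb3 encodes the paralogue best known from neurons and was a minor transcript. Its scaled TPM were 5.2 and 7.44 in GV, 14.3 and 11.7 in MII, 11.8 and 13.9 in Btg4wt and 5.96 and 5.19 in Btg4tm oocytes. As for Cpeb4, the MII and Btg4wt libraries were high and overlapped, and the GV and Btg4tm libraries were low and overlapped. The log2 fold change in MII relative to GV was 0.95 with a standard error of 0.21 (adjusted p = 0.0043), just short of a call, and it was 1.28 after quantile normalization, 1.17 without GV replicate 2 and 1.09 without MII replicate 2, each a call. It was 0.73 without GV replicate 1 and 0.83 without MII replicate 1. Under mitochondrial scaling it turned to -1.04, which is 0.70 above the median of all genes there. In Btg4tm relative to Btg4wt oocytes Cpeb3 fell by 1.07 (standard error 0.21, adjusted p = 0.0032). That call was as close to the threshold and was lost without Btg4wt replicate 2 (-0.97) or Btg4tm replicate 2 (-0.99), and under mitochondrial scaling (-0.10).

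Cpeb2 encodes the remaining paralogue and had 0.30 and 0.54 scaled TPM in GV, 0.44 and 0.22 in MII, 0.43 and 0.28 in Btg4wt and 0.29 and 0.60 in Btg4tm oocytes. All groups overlapped. No test was made at this level.

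The make-up of the family can be read within each library, where scaling between libraries plays no part. The summed level of the 4 CPEB genes in scaled TPM, unlike the shares and ratios, does depend on that scaling. This sum was 322 and 343 in GV, 166 and 185 in MII, 211 and 183 in Btg4wt and 301 and 283 in Btg4tm oocytes. Cpeb1 made up 96.1% and 95.8% of it in GV oocytes, 71.4% and 75.9% in MII, 77.9% and 75.8% in Btg4wt and 94.8% and 93.9% in Btg4tm oocytes. The share of Cpeb4 was 2.2% and 1.92% in GV, 19.7% and 17.6% in MII, 16.3% and 16.4% in Btg4wt and 3.18% and 4.08% in Btg4tm oocytes. The Cpeb4 share was thus several times higher in every MII and Btg4wt library than in any GV or Btg4tm library. The ratio of Cpeb1 to Cpeb4 was 43.6 and 49.8 in GV, 3.63 and 4.31 in MII, 4.78 and 4.62 in Btg4wt and 29.8 and 23.0 in Btg4tm oocytes. Both Btg4tm libraries lay below the GV libraries and above all MII and Btg4wt libraries. With 2 libraries against 2, an exact permutation test of such a ratio cannot go below p = 0.33, so none was made.

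Tent2 encodes the cytoplasmic poly(A) polymerase of the CPEB complex, also called GLD-2. It had 33.1 and 33.0 scaled TPM in GV, 64.6 and 61.5 in MII, 59.7 and 49.0 in Btg4wt and 48.7 and 52.1 in Btg4tm oocytes. The GV libraries were lowest, the MII libraries were highest, and the 2 injected groups lay between them and overlapped. MII relative to GV gave a log2 fold change of 0.91, with a standard error of 0.13 (adjusted p = 0.00033), beyond the replicate spread but not a call. It was 1.14 after quantile normalization and -1.26 under mitochondrial scaling, where it stayed 0.48 above the median of all genes. Between Btg4tm and Btg4wt oocytes it was -0.10 (interval -0.39 to 0.19, adjusted p = 0.54), a direction that turned without Btg4wt replicate 1 (0.030) and under mitochondrial scaling (0.97). Btg4tm oocytes had more Tent2 than GV oocytes, by 0.59 on the log2 scale (standard error 0.13, adjusted p = 0.023) and with every Btg4tm library above every GV library, again short of a call and at -0.024 under mitochondrial scaling. A part of these reads is uncertain, since 27.5% of the 50-base stretches of the longest Tent2 transcript also occur in the gene Gm15975. The ratio of Cpeb1 to Tent2 within a library was 9.36 and 9.95 in GV, 1.83 and 2.29 in MII, 2.75 and 2.83 in Btg4wt and 5.86 and 5.10 in Btg4tm oocytes.

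Papola encodes the canonical poly(A) polymerase alpha, which adds tails in the nucleus and has also been found in the oocyte cytoplasm. Its scaled TPM were 60.5 and 57.5 in GV, 106 and 98.3 in MII, 81.7 and 77.2 in Btg4wt and 85.2 and 93.8 in Btg4tm oocytes. The GV libraries were lowest and the MII libraries highest, as for Tent2, and the 2 injected groups lay between them without overlap. The log2 fold change in MII relative to GV was 0.78 with a standard error of 0.11 (adjusted p = 3e-04), and mitochondrial scaling turned it to -1.41. It was 0.17 in Btg4tm relative to Btg4wt (interval -0.07 to 0.41, adjusted p = 0.22), -0.36 in Btg4wt relative to MII (adjusted p = 0.28) and 0.59 in Btg4tm relative to GV oocytes (adjusted p = 0.013). None of these was a call, but mitochondrial scaling made that of Btg4tm versus Btg4wt a call at 1.24 (adjusted p = 0.00016). The sign turned in Btg4tm versus Btg4wt after quantile normalization (-0.083) and under mitochondrial scaling in Btg4wt versus MII (0.13) and Btg4tm versus GV (-0.033).

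Papolg encodes poly(A) polymerase gamma, a nuclear enzyme. It had 43.1 and 43.7 scaled TPM in GV, 37.1 and 30.4 in MII, 48.5 and 41.3 in Btg4wt and 34.8 and 29.98 in Btg4tm oocytes. The GV and Btg4wt libraries overlapped at the high end and the MII and Btg4tm libraries at the low end, a grouping shown by no other of the 9 genes. The log2 fold change was -0.36 in MII relative to GV (adjusted p = 0.060) and -0.46 in Btg4tm relative to Btg4wt oocytes (standard error 0.15, adjusted p = 0.031), both short of a call, and the latter turned to 0.60 under mitochondrial scaling. The ratio of Papola to Papolg was 1.40 and 1.32 in GV, 2.86 and 3.24 in MII, 1.69 and 1.87 in Btg4wt and 2.45 and 3.13 in Btg4tm oocytes. Here the Btg4tm libraries overlapped the MII libraries and stood above the GV libraries, unlike the ratio of Cpeb1 to Cpeb4.

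**Figure D2:**
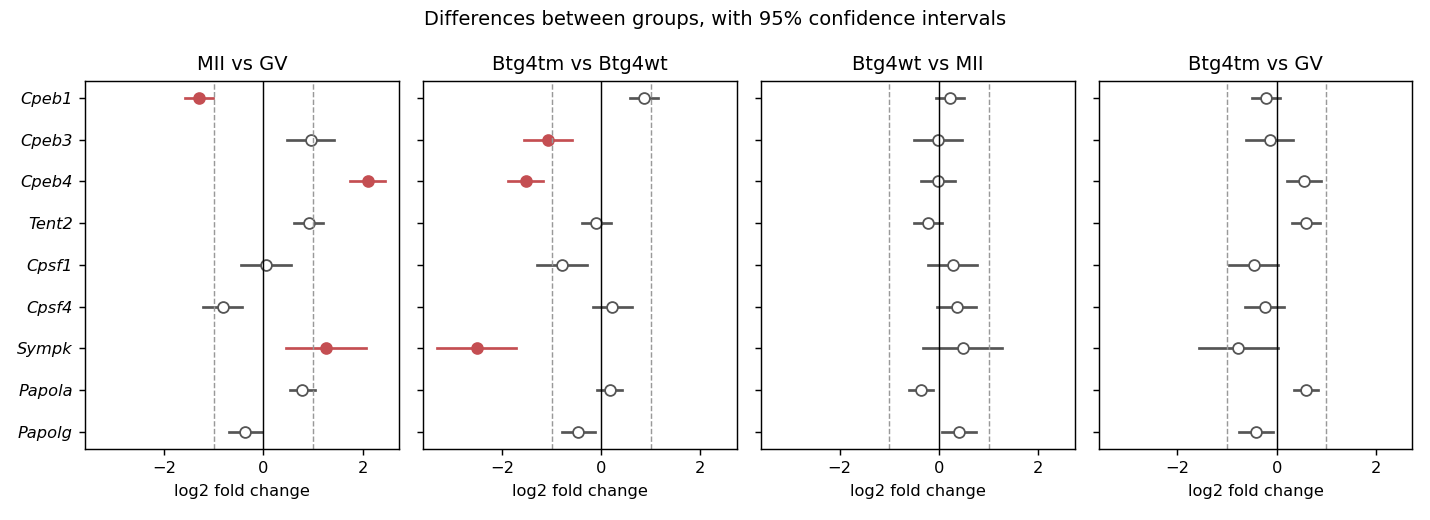
Log2 fold change (horizontal axis) of the 9 tested genes in the 4 comparisons, with points at the limma estimate and lines for the 95% confidence interval; filled points are calls and dashed lines mark a log2 fold change of 1 in either direction. Filled points are Cpeb1, Cpeb4 and Sympk in MII versus GV and Cpeb3, Cpeb4 and Sympk in Btg4tm versus Btg4wt.

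Sympk encodes symplekin, the scaffold that joins CPSF and the poly(A) polymerase in both nucleus and cytoplasm. Its scaled TPM were 3.38 and 8.82 in GV, 15.4 and 14.0 in MII, 20.7 and 20.9 in Btg4wt and 2.25 and 3.54 in Btg4tm oocytes. The Btg4wt libraries were highest, the MII libraries next, and both Btg4tm libraries were low, while the GV libraries differed from each other more than those of any other group. Sympk fell in Btg4tm relative to Btg4wt oocytes by 2.51 (standard error 0.35, adjusted p = 0.00052), a ratio of 0.176 in scaled TPM + 1. This was the largest fold change of the 9 genes in any of the 4 comparisons, lower than that of all but 0.1% of the genes tested, and Sympk was called lower under all 4 scalings. In MII relative to GV oocytes Sympk rose by 1.26 (standard error 0.35, adjusted p = 0.013), but its size depended on GV replicate 1. Without that library the log2 fold change was 0.68, while without MII replicate 1 it was 1.21, and the call was lost in both fits. The MII versus GV value of Sympk was -0.72 under mitochondrial scaling, 1.02 above the median of all genes there. Between Btg4tm and GV oocytes the log2 fold change was -0.77 (adjusted p = 0.18), and without GV replicate 1 it was -1.34 (adjusted p = 0.031), a call.

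Cpsf1 encodes the largest CPSF subunit, a scaffold of the module that reads the poly(A) signal. It had 5.54 and 7.44 scaled TPM in GV, 7.17 and 6.24 in MII, 8.85 and 7.80 in Btg4wt and 3.72 and 5.16 in Btg4tm oocytes. MII and GV libraries overlapped, with a log2 fold change of 0.051 (interval -0.45 to 0.55, adjusted p = 0.85) that was -0.087 in the TPM as deposited, -1.86 under mitochondrial scaling, -0.13 without GV replicate 1 and -0.027 without MII replicate 1. Both Btg4tm libraries lay below all others. The log2 fold change in Btg4tm relative to Btg4wt oocytes was -0.79 (standard error 0.22, adjusted p = 0.016), short of a call, and 0.14 under mitochondrial scaling, which is -0.73 relative to the median of all genes there.

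Cpsf4 encodes the zinc-finger subunit of CPSF that binds the poly(A) signal. Its scaled TPM were 17.7 and 21.2 in GV, 10.9 and 10.2 in MII, 12.1 and 15.7 in Btg4wt and 15.6 and 17.0 in Btg4tm oocytes. It shared the order of Cpeb1, with GV highest and MII lowest, while the 2 injected groups overlapped. The log2 fold change was -0.82 in MII relative to GV (standard error 0.17, adjusted p = 0.0032) and 0.23 in Btg4tm relative to Btg4wt oocytes (interval -0.17 to 0.62, adjusted p = 0.31). Mitochondrial scaling made both of them calls, at -2.87 (adjusted p = 3.2e-07) and 1.24 (adjusted p = 0.001), which are -1.13 and 0.36 relative to the median of all genes. The 2 CPSF genes moved unequally, and the ratio of Cpsf4 to Cpsf1 was 3.20 and 2.85 in GV, 1.51 and 1.64 in MII, 1.37 and 2.01 in Btg4wt and 4.20 and 3.29 in Btg4tm oocytes.

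**Figure D3:**
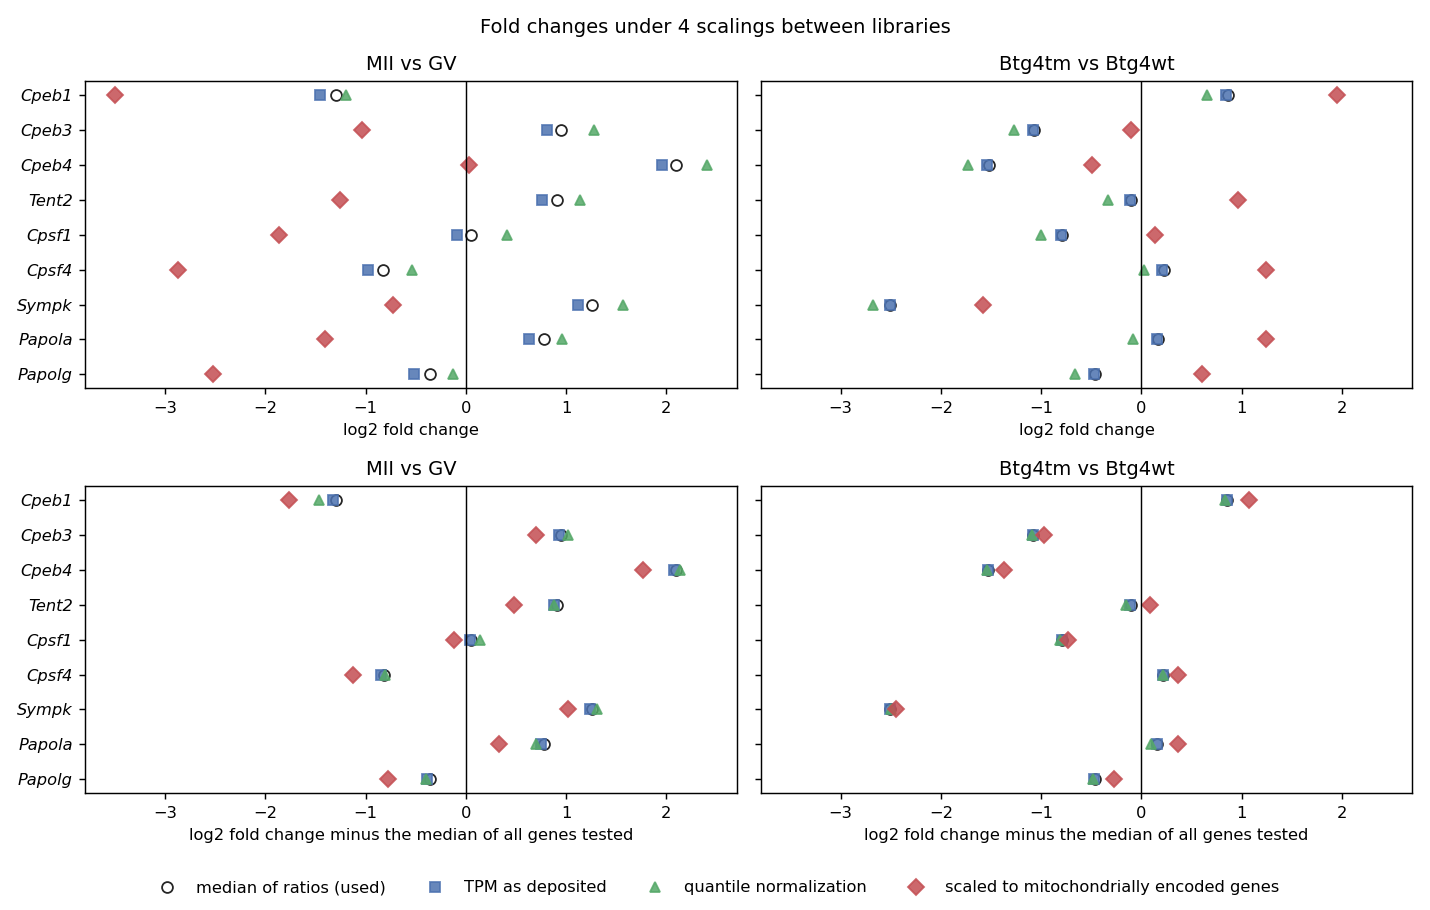
Log2 fold changes of the 9 tested genes under 4 scalings between libraries, in MII versus GV (left) and Btg4tm versus Btg4wt (right), as estimated (top) and after subtraction of the median of all genes tested (bottom). Scaling to mitochondrially encoded genes moves the points further than it moves the median of all genes (to -1.7 and 0.88). The points of each gene come closer together after subtraction but do not coincide.

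The 2 comparisons MII versus GV and Btg4tm versus Btg4wt share no library, and their values can be set side by side. Cpeb4 had log2 fold changes of 2.10 and -1.52, Cpeb3 0.95 and -1.07, Sympk 1.26 and -2.51, and Cpeb1 -1.30 and 0.86. These 4 genes had opposite signs in the 2 comparisons, as did Tent2 (0.91 and -0.10), Cpsf1 (0.051 and -0.79) and Cpsf4 (-0.82 and 0.23). Papola (0.78 and 0.17) and Papolg (-0.36 and -0.46) had the same sign in both. After subtraction of the median of all genes, mitochondrial scaling kept the sign of each of the 9 genes except Cpsf1 in MII versus GV (-0.12) and Tent2 in Btg4tm versus Btg4wt (0.092). In the values used here these were 0.053 and -0.11. Each of the 9 genes moved further under mitochondrial scaling than the median of all genes did, so values relative to that median shift too.

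Over the 8 libraries, which fall into 4 groups of 2, the genes with levels most like those of Cpeb1 were Amz2, a metalloprotease gene, Rce1, a protease gene for prenylated proteins, and Fzr1, which encodes the anaphase-promoting complex activator CDH1. Their Pearson correlations with Cpeb1 on the log2(scaled TPM + 1) scale were 0.998, 0.997 and 0.997 among the 6882 genes that averaged 10 or more scaled TPM. Fzr1 had mean levels of 61.9 scaled TPM in GV, 14.9 in MII, 19.8 in Btg4wt and 48.9 in Btg4tm oocytes. The genes most like Tent2 were Tmem237 (0.989), Slco3a1 (0.988) and Mthfsl (0.987), and Tmem237 had means of 22.7 in GV, 46.5 in MII, 41.3 in Btg4wt and 35.9 in Btg4tm oocytes.

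The nuclear machinery that cleaves pre-mRNA and adds the first tail shares CPSF with the cytoplasmic complex. Of its 16 other genes 13 were tested. In MII relative to GV oocytes 2 were called higher and 3 lower, beside 12.5% and 24% of all genes, with a median log2 fold change of 0.085. Cpsf2 (1.21) and Wdr33 (1.23), a partner of Cpsf4 in signal recognition, rose, while the endonuclease gene Cpsf3 (-1.39), Nudt21 (-1.46) and the kinase gene Clp1 (-1.98) fell. CPSF genes hence differed in direction within one complex. Under mitochondrial scaling none of the 13 was called higher and 11 were called lower, with a median 0.087 above that of all genes. Clp1 in Btg4tm relative to Btg4wt oocytes was called higher (1.48, standard error 0.51, adjusted p = 0.041) and Cpsf2 lower (-1.06, adjusted p = 6.3e-05), with a median of -0.20. Of all genes 18.1% were called higher and 7.94% lower. Mitochondrial scaling gave 5 higher and 0 lower and quantile normalization 0 higher and 2 lower. Clp1 was low and its replicates differed widely. It had 8.50 and 7.27 scaled TPM in GV, 0.28 and 2.94 in MII, 1.35 and 0.18 in Btg4wt and 4.18 and 3.19 in Btg4tm oocytes.

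Among the other terminal nucleotidyltransferases, the enzymes related to TENT2 that add adenines or uridines to RNA ends, 8 of 10 genes were tested. In MII relative to GV oocytes 2 were called higher and none lower, beside 12.5% and 24% of all genes, with a median log2 fold change of 0.14. Tent4a, a gene for an enzyme of mixed tails, rose from 33.8 ± 4.66 to 103 ± 11.98 scaled TPM (SD, n = 2), and Tut7, a uridylyltransferase gene, rose from 4.20 ± 0.19 to 11.5 ± 0.45. Mitochondrial scaling gave none higher and 5 lower. None was called in Btg4tm relative to Btg4wt oocytes, beside 18.1% of all genes higher and 7.94% lower, with a median of -0.56. Both quantile normalization (2 lower) and mitochondrial scaling (1 higher) gave calls.

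The genes for kinases, binding partners and co-repressors of CPEB1 were all tested but 1 of 20. In MII relative to GV oocytes 2 were called higher and 7 lower, beside 12.5% and 24% of all genes, with a median log2 fold change of -0.69. Zar1l, an oocyte RNA-binding protein gene, fell from 1082 ± 13.5 to 44.5 ± 6.88 scaled TPM (SD, n = 2), and Cdk1, the maturation kinase that phosphorylates CPEB1, from 81.9 to 4.03. Btrc (-2.31), whose product takes part in CPEB1 degradation, and Ybx2 (-2.02), an mRNA-storage protein gene, also fell. The 2 genes that rose, named after their values were seen, were Lsm14b (1.63) and Lsm14a (1.47), which encode proteins of translationally silent particles. Between Btg4tm and Btg4wt oocytes 6 were called higher and 3 lower, beside 18.1% and 7.94% of all genes, with a median of 0.11. Zar1l had 1011 scaled TPM in Btg4tm and 96.3 in Btg4wt oocytes, and Cdk1 had 57.9 and 3.32. The cap-binding gene Eif4e1b, which encodes the oocyte eIF4E that sits in the CPEB1 repressor complex of frogs, fell from 343 ± 5.36 in Btg4wt to 67.8 ± 28.6 in Btg4tm oocytes. The other two called lower, also named after their values were seen, were the helicase gene Ddx6 (-1.51, adjusted p = 0.00025) and Lsm14b (-1.15). Mitochondrial scaling gave 0 higher and 17 lower in MII versus GV, and 11 higher and 1 lower in Btg4tm versus Btg4wt, where quantile normalization gave 4 higher and 4 lower.

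Of 8 other sequence-specific regulators of stored mRNA 7 were tested. Dazl, an RNA-binding protein gene that acts with CPEB1, rose in MII relative to GV oocytes. It went from 418 ± 45.5 to 965 ± 4.17 scaled TPM (SD, n = 2). Thus 1 of the 7 was called higher and none lower, beside 12.5% and 24% of all genes. The median log2 fold change of the 7 was 0.85. Mitochondrial scaling gave 0 higher and 6 lower, quantile normalization 4 higher and 0 lower, and TPM as deposited 1 higher and 1 lower. In Btg4tm relative to Btg4wt oocytes Msi2 (-1.15) and Elavl2 (-1.04) fell, with a median of -0.85. Of all genes 18.1% were called higher and 7.94% lower. Msi2 was a low transcript, with means of 1.38 scaled TPM in Btg4tm and 4.26 in Btg4wt oocytes. Under mitochondrial scaling none of the 7 was called, with a median of -0.76 relative to that of all genes.

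The mRNAs known to be dormant in GV oocytes and translated in maturation had more genes called higher in MII versus GV than any other of the 5 lists. Because the lists were chosen with earlier results of these data known, this ranking is only a description of them. All 13 were tested, of which Dazl is also counted in the list before and Mos among the oocyte markers. In MII relative to GV oocytes 10 were called higher and none lower, beside 12.5% and 24% of all genes, with a median log2 fold change of 1.17. Ccnb1, the cyclin B1 gene and a classical CPEB1 target, rose from 1585 ± 118 to 3386 ± 247 scaled TPM (SD, n = 2). The deadenylase gene Cnot7 rose by 1.33 and Il7 by 1.39 on the log2 scale. The count was 7 higher in the TPM as deposited and 6 higher after quantile normalization, and mitochondrial scaling turned it to 0 higher and 8 lower, with a median 0.70 above that of all genes. Dcp2 (-1.69), Dcp1a (-1.41) and Oosp1 (-1.12) fell in Btg4tm relative to Btg4wt oocytes, and none was called higher. Of all genes 18.1% were called higher and 7.94% lower. The median of the list was -0.46, which is the value of Btg4, the gene whose cRNA was injected in both groups. Mitochondrial scaling gave 3 higher and 0 lower in Btg4tm versus Btg4wt, with a median of -0.24 relative to that of all genes. In none of the 5 lists was a gene called between Btg4wt and MII oocytes, beside 0% of all genes higher and 0% lower. Between Btg4tm and GV oocytes the histone mRNA-binding gene Slbp alone was called, higher by 1.41 (adjusted p = 0.0047). The shares of all genes called there were 1.02% higher and 1.02% lower. The counts of the lists in these 2 comparisons too depended on the scaling. Between Btg4tm and GV oocytes mitochondrial scaling gave none higher in any of the 5 lists, and 2 nuclear factors, 1 nucleotidyltransferase, 6 CPEB1 kinases and partners, 1 other regulator and no dormant mRNA lower. TPM as deposited added 1 nucleotidyltransferase and 1 CPEB1 kinase or partner called lower, and quantile normalization 1 of the latter. Between Btg4wt and MII oocytes mitochondrial scaling gave 2 CPEB1 kinases and partners higher.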

How the data were processed

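Each of the 8 libraries held cDNA of 15 mouse oocytes, made with oligo(dT) priming and Smart-seq2. Per the submitters' processing notes and the methods, the authors trimmed reads with Trim Galore 0.6.10, aligned them to GRCm38 with HISAT2 2.2.0 and counted them on GENCODE exons with featureCounts 2.0.6, without strand and without reads of low mapping quality. They deposited TPM per gene symbol, and the gene lengths behind the TPM and the filter on listed genes are not given in the sources used here. The sample titles and characteristics set the groups, and the titles the replicate numbers. The extract protocol speaks of 3 samples per group, and 2 per group were analysed here.

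For the 15962 genes listed in every table, TPM were divided by median-of-ratios factors and taken as log2(scaled TPM + 1). Differences were tested with limma 3.58.1 in R 4.3.3 (1 coefficient per group over all 8 libraries, eBayes with trend) for the 13968 genes that reached 1 TPM in 2 or more libraries, with Benjamini-Hochberg adjustment over all of them. The call threshold was an adjusted p of 0.05 with a log2 fold change above 1 in either direction. Since the tables hold TPM, the count test of the study could not be used.

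The rule for the members uses no measured value, but the members and lists were chosen with earlier results of these data known. All 10 members are named, as are up to 4 called genes of each other list and comparison by absolute fold change (genes beyond this number only as counts), and the 3 genes most correlated with Cpeb1 and with Tent2. Lists are described by counts and medians, with no set test.

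Other settings tried were the deposited TPM without further scaling, scaling to the summed TPM of mitochondrially encoded genes, quantile normalization, a filter at 5 TPM, no filter, a pseudocount of 0.1, a replicate block, the 4 libraries of a comparison alone, no minimum fold change, eBayes with no trend, and leaving out each library in turn, which leaves 1 library in its group and assumes that it varies like the other groups. The script was tested on simulated data into which known changes had been put. Figures were drawn with matplotlib 3.10.9.

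Positions and 3′ UTR sequences came from GENCODE M21 on GRCm38, the build of the authors in an earlier annotation release. Shared stretches were 50 bases long and sought in all other annotated transcripts. Protein sequences were not used here.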

Additional observations from a re-analysis of the deposited data

How the results depend on the processing

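The number of called genes was the same or within 1.5 times under TPM as deposited, no filter, a filter at 5 TPM, a pseudocount of 0.1, the 4 libraries alone, no trend and the replicate block, in all 4 comparisons. Same-numbered libraries deviated from their group means with correlations of -0.016, 0.056, -0.054 and 0.041, so no shared deviation was seen. With 2 libraries per group this cannot show whether same-numbered samples were collected together, and the labels do not say. The fit with a replicate block left the counts at 3, 3, 0 and 0 and changed no call. In MII versus GV quantile normalization gave 5 calls, mitochondrial scaling 7 and no minimum fold change 7. The median of 0.78 was 0.42 with no filter, which adds Cpeb2, and -1.41 under mitochondrial scaling. In Btg4tm versus Btg4wt no minimum fold change gave 6 calls, and the median of -0.46 was -0.66 after quantile normalization, 0.60 under mitochondrial scaling and -0.28 with no filter. In Btg4wt versus MII the median of 0.23 was 0.65 under mitochondrial scaling. In Btg4tm versus GV mitochondrial scaling gave 3 calls with a median of -0.84, no minimum fold change 2, and leaving out a library 0 to 1.

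The sign turned as follows, and the cause was not tested. Under mitochondrial scaling the MII versus GV values were -1.04 for Cpeb3, -1.26 for Tent2, -1.86 for Cpsf1, -0.72 for Sympk and -1.41 for Papola. The Btg4tm versus Btg4wt values were 0.97 for Tent2, 0.14 for Cpsf1 and 0.60 for Papolg. Those of Btg4wt versus MII were 0.42 for Cpeb3, 0.45 for Cpeb4, 0.27 for Tent2 and 0.13 for Papola, and those of Btg4tm versus GV -0.013 for Cpeb4, -0.024 for Tent2 and -0.033 for Papola. Medians of all genes under this scaling were -1.7, 0.88, 0.39 and -0.64. Cpsf1 in MII versus GV was -0.087 in TPM as deposited and -0.13 to 0.24 when a library was left out (below 0 without GV replicate 1 or MII replicate 1). Papola in Btg4tm versus Btg4wt was -0.083 after quantile normalization, and Tent2 was -0.25 to 0.030 when a library was left out (above 0 without Btg4wt replicate 1). With a library left out, Btg4wt versus MII ranged from -0.15 to 0.12 for Cpeb3 (above 0 without MII replicate 1 or Btg4wt replicate 1, 0.10) and from -0.11 to 0.077 for Cpeb4 (above 0 without Btg4wt replicate 2), and Btg4tm versus GV from -0.35 to 0.098 for Cpeb3 (above 0 without GV replicate 2). Of all values for single genes under alternatives, 450 kept direction and call and 24 turned in sign. Of those that kept the direction, 23 became calls and 7 lost the call. Shares and ratios within a library do not depend on scaling between libraries.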
